A study of Mus musculus with 12 samples.

Results

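Described here are 41 genes of antioxidant defence in the mouse cochlea, the coiled organ in which sound is turned into nerve signals: the transcription factor gene Nfe2l2, which encodes NRF2, its inhibitor gene Keap1, and 39 enzymes, carriers and transporters that NRF2 is linked to or that remove oxidants. They were taken by symbol from a table of 35496 Ensembl genes, in which each of the 41 symbols matched 1 row. RNA came from cochleae of FVB/NCrl mice, an inbred strain, at postnatal day 60, and all libraries share strain, age and tissue. Noise of 70, 94 or 105 dB SPL (decibels of sound pressure) was given to awake animals for 30 minutes, and RNA was taken straight afterwards. The 70 dB group is the ambient control, the 94 dB group is labelled loud and the 105 dB group very loud, with 4 libraries each and 12 in all. Whether a library holds 1 animal or several is not given in the labels, and the p-values reflect only how these samples vary, which may be technical.

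NRF2 is held at a low level by KEAP1, an adaptor that hands it to the CUL3 ubiquitin ligase for degradation. When oxidants or electrophiles modify cysteines of KEAP1, NRF2 accumulates, pairs with a small MAF protein and binds antioxidant response elements in front of genes for glutathione synthesis, thioredoxin reduction, conjugation and NADPH supply. Much of this control acts on the NRF2 protein, which transcript counts do not measure. In the cochlea these enzymes are known as a defence against the reactive oxygen species that loud sound produces in hair cells and the stria vascularis.

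Promoter sequences are shown first because the antioxidant response element is the motif through which NRF2 acts on its targets. Its core was searched as TGACNNNGC on both strands of RefSeq promoter windows (GRCm38.p6, the assembly also named mm10) of 300 bases, 250 before and 50 after each annotated start. Windows were found for 34 of the 41 genes, and 10 of these 34 genes held the core (29.4%), against 14.0% of all 27025 genes with a window. Counted by window, 10 of 45 held it (22.2%), against 12.4% of 32851. The 10 genes were Nfe2l2, Srxn1, Gclm, Prdx1, Pgd, Mgst1, Me1, Txnrd1, Sod1 and G6pdx. No window was found for Sod3, Prdx6, Gsr, Gclc, Hmox1, Gsta4 and Abcc1, so these genes were not searched. In the genes searched, a core outside the window would be missed. A match describes letters in a window and is not a measured binding site. The stretches around 4 matches that lie before the start are given on the gene's strand, with the core or its reverse complement in capitals.
Nfe2l2 (chr2:75704869-75704913, minus strand): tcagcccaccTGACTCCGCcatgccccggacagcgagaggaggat
Prdx1 (chr4:116685440-116685500, plus strand): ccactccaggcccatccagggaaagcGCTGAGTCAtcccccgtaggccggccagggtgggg
Txnrd1 (chr10:82859088-82859148, plus strand): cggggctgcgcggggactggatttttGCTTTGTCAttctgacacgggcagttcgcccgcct
Gclm (chr3:122245397-122245457, plus strand): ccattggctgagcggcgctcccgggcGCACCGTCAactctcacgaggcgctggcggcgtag
Txnrd1 had 3 windows, and its match lies at a start inside the gene, downstream of the annotated gene start at 82833951. The core began 240 bases before the start in Nfe2l2, 133 in Prdx1, 92 in Txnrd1 and 134 in Gclm. In Me1 it began 6 bases before the start, and in Srxn1 and Pgd it lay after the start. Of the 10 genes with the core, Pgd and Txnrd1 rose and Nfe2l2 and Me1 fell at 94 dB against 70 dB. That is 4 of 10, where 26.1% of all genes tested were called. At 105 dB against 70 dB none of the 10 was called, where 1.62% of all genes tested were. The calls of Txnrd1, Nfe2l2 and Me1 were lost without 94 dB replicates 3 and 4 together, with adjusted p of 0.128, 0.175 and 0.130 by edgeR. Their log2 fold changes there were 0.23, -0.17 and -0.21, against 0.22, -0.27 and -0.19 with all libraries.

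Total counts per library ran from 31141706 to 42317781. Levels are in CPM, a gene's count per 1000000 counts of the library after TMM scaling. A gene was called where edgeR's quasi-likelihood test gave an adjusted p below 0.05 (Benjamini-Hochberg, over 19497 genes), and all 41 genes passed the filter on low counts. The 41 genes held 0.635% to 0.765% of counts. Markers of the cochlea's sensory, supporting, neural, glial, strial and fibrocyte cells were all above 0, although prestin (Slc26a5), which defines outer hair cells, read only 0.142 to 0.558 CPM. Markers of blood and bone marrow cells were present too: the erythroid list (10 of 11 markers in the table, none at 0) summed to between 18473 and 22650 CPM in ambient libraries, between 19180 and 32772 at 94 dB and between 22671 and 31785 at 105 dB. Markers of other cell types moved at 94 dB as well: 4 of 9 neutrophil markers rose and none fell, and 4 of 9 macrophage markers rose and 1 fell. Of 9 supporting cell markers 2 rose and 3 fell, of 9 Schwann cell markers 1 rose and 3 fell, of 6 fibrocyte markers 1 rose and 3 fell, and none of 10 hair cell markers was called, where 13.9% of all genes rose and 12.2% fell. Their part in the members' results was not tested. Mitochondrially encoded genes made up 5.36 ± 0.25% of the ambient libraries' counts, 3.13 ± 0.49% of the 94 dB and 4.77 ± 0.43% of the 105 dB libraries' counts (mean ± SD, n = 4), and at 94 dB replicates 3 and 4 stood apart from replicates 1 and 2. All 94 dB libraries lay below all others, with replicates 1 and 2 at 3.53% and 3.59% and the lowest other library at 4.43%. A two-sided exact permutation test gave p = 0.0286 for 94 dB against either group, or 0.0571 after adjustment over 6 tests. Leaving out replicates 3 and 4 does not remove this difference, whose part in the members' results was not tested. Member calls lost without that pair are marked below. The smaller group alone can also cost a call. Counts of cell type markers and of other gene lists are given from all libraries only. A lower level in whole tissue can mean fewer cells of a type or less RNA in each, which cannot be told apart here.

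Per kilobase of annotated exon, the list was led under ambient sound by glutathione peroxidases. That length joins all annotated exons of a gene and can exceed the transcript present, so the order depends on the annotation. By CPM alone, Prdx2 at 500 and Txnip at 453 lay above Gpx4 at 392. Gpx1, the cytosolic peroxidase, stood highest at 559 ± 47.3 CPM per kilobase (mean ± SD, n = 4), followed by the secreted enzyme Gpx3 at 327 ± 35.2 and the lipid hydroperoxide reductase Gpx4 at 228 ± 24.6. The lowest level per length was that of Abcc1, an exporter of glutathione conjugates, at 2.0 ± 0.11. Between these, Nfe2l2 ranked 21st at 36.6 CPM per kilobase and Keap1 36th at 9.57.

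**Figure D1:**
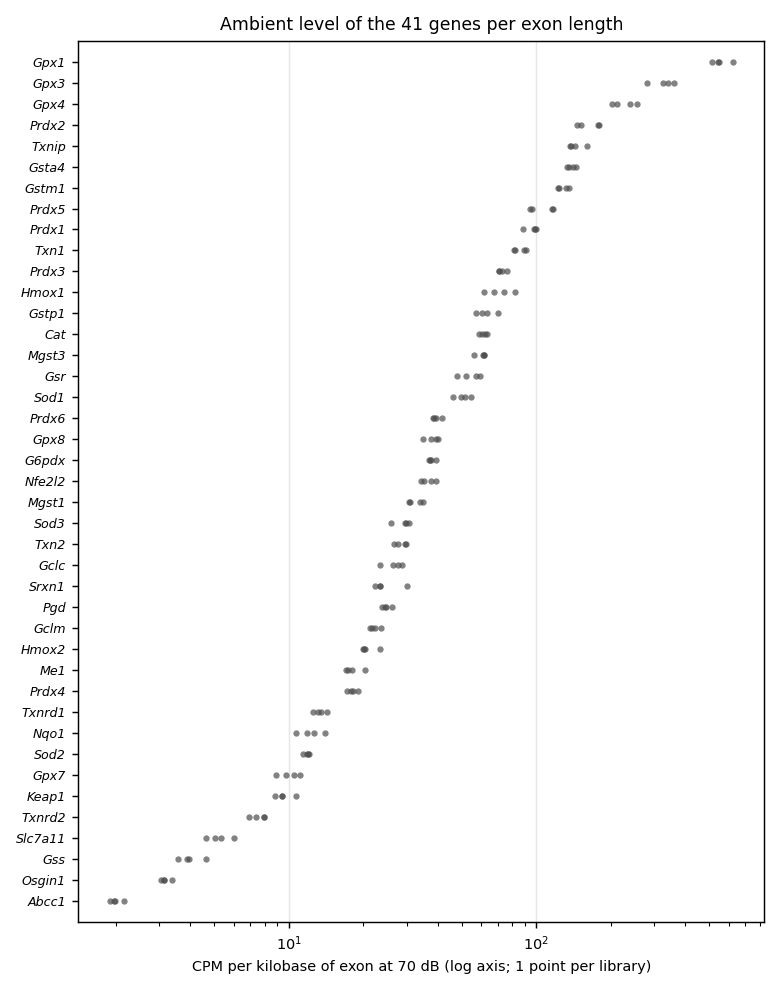
Ambient level of each of the 41 genes, in CPM per kilobase of exon on a log axis, with 1 point for each of the 4 libraries at 70 dB. Gpx1 lies at the top and Abcc1 at the bottom of a range from 2.0 to 559.

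The comparison of 94 dB with 70 dB asked what loud noise did to these transcripts. Of the 41 genes 10 rose, 3 fell and 28 were not called. Risers were Keap1, Pgd, Txn1, Mgst3, Osgin1, Gpx1, Txnrd2, Txnrd1, Txnip and Prdx6, and Gclc, Nfe2l2 and Me1 fell. Among all genes tested, calls at 94 dB made up 26.1%, 13.9% higher and 12.2% lower, so the members' total of 31.7% lies near the background, with 24.4% higher and 7.32% lower. The 4 libraries of each group did not overlap in 11 of the 41 genes, a share of 26.8% against 25.4% over all genes tested. The median log2 fold change was 0.15 over the 41 genes and -0.02 over all genes tested, and the members' median was 0.07 once the trend on GC content and length was removed. Log2 fold changes ran from -0.38 for Gclc to 0.55 for Txn1. Without 94 dB replicates 3 and 4 together, 5 of the 41 genes rose (Keap1, Pgd, Txn1, Mgst3 and Osgin1), none fell and the median was 0.04. Over all genes, that omission gave 1610 calls, against 5085 with all libraries. Without 70 dB replicate 3, or without 94 dB replicate 4, the number of risers among the members was 6, with 3894 and 3452 calls over all genes. Where the text says that a call was lost or gained, the adjusted p under that setting is in brackets, followed by the lowest and highest adjusted p over the alternatives.

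The comparison of 105 dB with 70 dB asked the same of the loudest noise. Here 1 of the 41 genes rose, Gpx1, and none fell. At an unadjusted p under 0.05 by edgeR, 10 members were higher (24.4%, against 9.2% of all genes tested) and 0 lower (against 9.53%). DESeq2 called 0 members lower at an adjusted p below 0.05. By the same unadjusted threshold, 15 members were higher and 5 lower at 94 dB against 70 dB. There 38.3% of all genes tested passed it, with 18.7% of all genes lower. Between 105 and 94 dB 7 members were higher and 7 lower, where 31.5% of all genes passed, with 16.5% lower. Among all genes tested, calls at 105 dB made up 1.62%, 1.11% higher and 0.508% lower. The groups did not overlap in 7 of the 41 genes (17.1%), against 10.8% over all genes. The median log2 fold change was 0.09 over the 41 genes and -0.004 over all genes tested, and the members' values ran from -0.12 to 0.43. DESeq2 called 5 members higher, Gpx1, Txnip, Prdx3, Txn1 and Prdx2. Over all genes it called 885 in either direction, against 316 by edgeR. Both comparisons share the 70 dB libraries, so their values are set side by side here and not taken as independent.

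**Figure D2:**
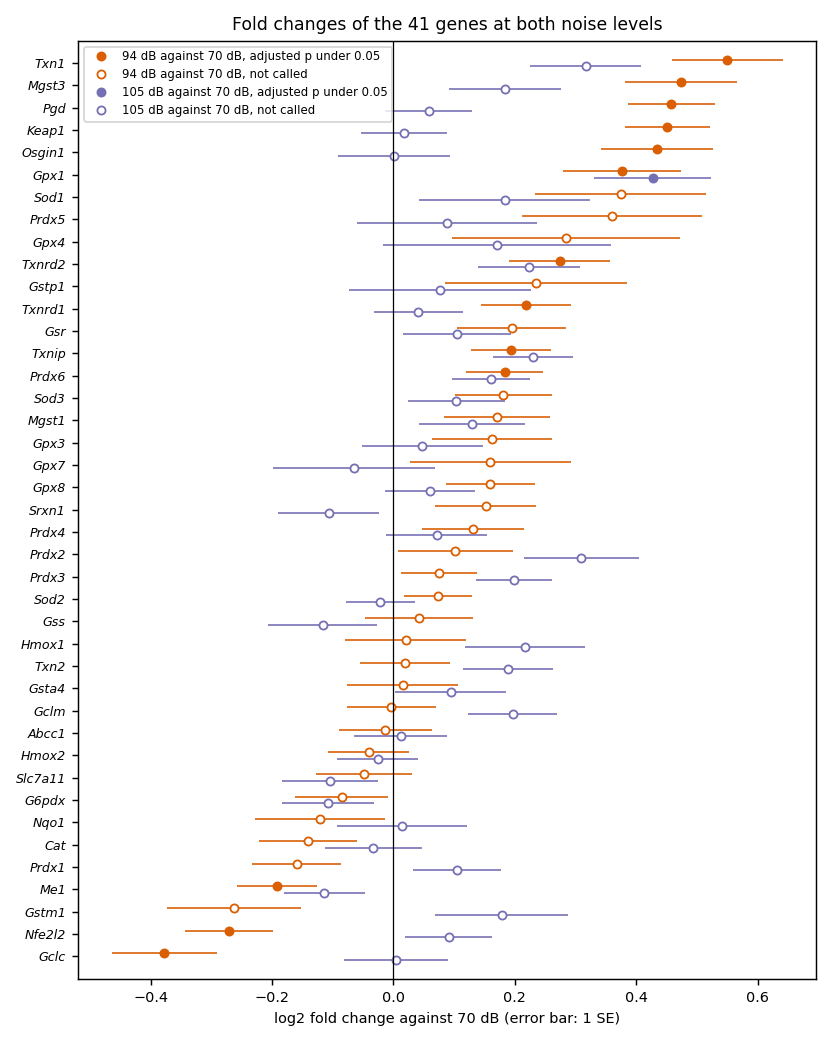
Log2 fold change against 70 dB of each gene at 94 dB (orange) and 105 dB (purple), with error bars of 1 SE; filled points passed an adjusted p of 0.05. The 13 filled orange points run from -0.38 to 0.55, and the only filled purple point is Gpx1 at 0.43.

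The 2 regulators moved in opposite directions at 94 dB. Keap1 (ENSMUSG00000003308; mm10 chromosome 9, 21229730 to 21239361) read 50.3, 44.1, 41.3 and 44.0 CPM at 70 dB, 59.9, 63.5, 62.3 and 60.1 CPM at 94 dB and 47.7, 47.1, 41.3 and 45.8 CPM at 105 dB. All 94 dB libraries lay above all libraries of the other groups, which overlapped each other. The fitted log2 fold change was 0.45 ± 0.07 (SE, with adjusted p = 3.99e-04) at 94 dB and 0.02 ± 0.07 (SE, with adjusted p = 0.917) at 105 dB, by edgeR. The call at 94 dB held under all 23 alternatives, with a log2 fold change of 0.28 when the trend on GC content and length was removed. An antisense gene, Gm16754, overlaps 10.9% of the exon length of Keap1 and read 1.36 ± 0.31 CPM at 70 dB and 1.5 ± 0.34 at 94 dB (mean ± SD, n = 4).

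Nfe2l2 (ENSMUSG00000015839; mm10 chromosome 2, 75675513 to 75704641) read 133, 143, 149 and 130.4 CPM at 70 dB, 126, 119.9, 111 and 103 CPM at 94 dB and 152, 147, 139.8 and 153 CPM at 105 dB. Every 94 dB library lay below every library of the other groups. On the log2 scale the fitted change was -0.27 ± 0.07 (SE, with adjusted p = 0.0116) at 94 dB and 0.09 ± 0.07 (SE, with adjusted p = 0.516) at 105 dB, by edgeR. The lowest 94 dB values were those of replicates 3 and 4, and without that pair the log2 fold change was -0.17 and the adjusted p 0.175, the highest of 0.00298 to 0.175 over the alternatives.

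**Figure D3:**
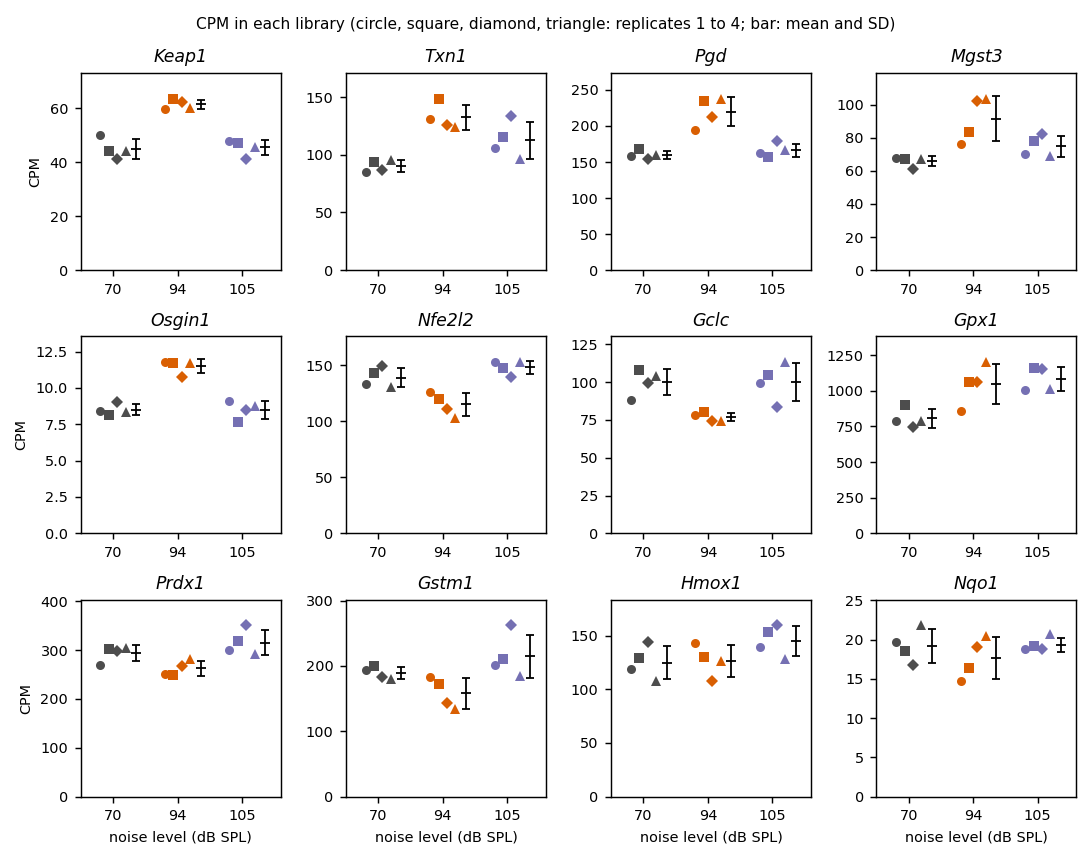
CPM in each of the 12 libraries for 12 of the genes, with a marker shape for each replicate number and the mean and SD beside each group. Keap1, Txn1, Pgd, Mgst3 and Osgin1 are higher and Nfe2l2 and Gclc lower in every 94 dB library than in every 70 dB library, while Hmox1 and Nqo1 overlap across all groups.

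The thioredoxin system returns oxidised protein thiols to their reduced form with electrons from NADPH. Counted here with Txnip, whose product inhibits thioredoxin, the group had 4 of 5 members higher at 94 dB, Txn1, Txnrd1, Txnrd2 and Txnip. Of all genes 13.9% were higher there. No member of the group was lower, and none was called at 105 dB, where 1.62% of all genes were. Of these 4 calls, those of Txnrd1, Txnrd2 and Txnip were lost without 94 dB replicates 3 and 4 together. Without that pair the log2 fold change was 0.23 for Txnrd1 and 0.21 for Txnip, against 0.22 and 0.19 with all libraries. For Txnrd2 it was 0.16 without the pair, against 0.27. Txn1 (ENSMUSG00000028367; mm10 chromosome 4, 57943373 to 57956411), the cytosolic thioredoxin, read 85.4, 93.9, 86.5 and 96.0 CPM at 70 dB, 131, 149, 126 and 124 CPM at 94 dB and 106, 115, 134 and 96.1 CPM at 105 dB. Both noise groups lay above the 70 dB group without overlap, though for 105 dB replicate 4 the margin was under 1 CPM. The log2 fold change was 0.55 ± 0.09 (SE, with adjusted p = 6.28e-04) at 94 dB, a call kept under all 23 alternatives, and 0.32 ± 0.09 (SE, with adjusted p = 0.0882) at 105 dB, by edgeR. That second value passed without 105 dB replicate 4 (0.0386) and without a filter on low counts (0.0267) or with DESeq2 (0.0342), with adjusted p from 0.0267 to 0.242.

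Txnrd1, the cytosolic thioredoxin reductase, read 101, 89.0, 95.5 and 93.0 CPM at 70 dB, 111, 109.9, 103 and 116 CPM at 94 dB and 103, 108, 92.4 and 86.5 CPM at 105 dB. The 94 dB libraries lay above those at 70 dB, and the 105 dB libraries overlapped both. Its log2 fold change at 94 dB was 0.22 ± 0.07 (SE, with adjusted p = 0.0390) by edgeR's test. The call was lost without 70 dB replicates 2 (0.104), 3 (0.0639) or 4 (0.0737), or 94 dB replicates 1 (0.0531), 2 (0.0587) or 4 (0.106). It was also lost with upper-quartile factors (0.0746), without a filter on low counts (0.0501) or without 94 dB replicates 3 and 4 together (0.128), with adjusted p from 0.0130 to 0.128.

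For the mitochondrial reductase Txnrd2 the values were 32.5, 35.0, 30.6 and 35.2 CPM at 70 dB, 36.5, 38.0, 42.4 and 44.2 CPM at 94 dB and 33.6, 40.3, 40.6 and 41.1 CPM at 105 dB. The 94 dB libraries lay above the 70 dB libraries, and 105 dB replicate 1 lay among the latter. Its log2 fold change was 0.27 ± 0.08 (SE, with adjusted p = 0.0234) at 94 dB and 0.22 ± 0.08 (SE, with adjusted p = 0.174) at 105 dB, by edgeR. At 94 dB the call ended without 70 dB replicate 3 (0.0683), or 94 dB replicates 3 (0.0692) or 4 (0.0818). It ended as well once the GC and length trend was removed (log2 fold change 0.16, adjusted p = 0.172) or without 94 dB replicates 3 and 4 together (log2 fold change 0.16, adjusted p = 0.302), with adjusted p from 0.0109 to 0.302.

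Txnip, which encodes a protein that binds and inhibits thioredoxin, read 434, 499.6, 449.6 and 428 CPM at 70 dB, 507, 538, 495 and 529 CPM at 94 dB and 513, 548, 537 and 526 CPM at 105 dB. Every 105 dB library exceeded every 70 dB library, while 94 dB replicate 3 lay below 70 dB replicate 2. The fitted log2 fold change was 0.19 ± 0.07 (SE, with adjusted p = 0.0403) at 94 dB and 0.23 ± 0.07 (SE, with adjusted p = 0.0876) at 105 dB, by edgeR. Its 94 dB call was lost without 70 dB replicates 1 (0.0835), 3 (0.0768) or 4 (0.103), or 94 dB replicates 2 (0.0885), 3 (0.0515) or 4 (0.0886), or 105 dB replicate 2 (0.0588). It was lost, too, with upper-quartile factors (0.0832), without a filter on low counts (0.0814), in a fit of the 8 libraries compared (0.0733) or without 94 dB replicates 3 and 4 together (0.106), with adjusted p from 0.00974 to 0.106. At 105 dB it passed without 70 dB replicate 2 (0.0448) and with DESeq2 (0.0111), with adjusted p from 0.0111 to 0.260. An antisense gene, Gm15441, overlaps 19.4% of the exon length of Txnip and read under 1 CPM on average in each group. The mitochondrial thioredoxin Txn2 read 119.8 ± 6.46, 121 ± 6.99 and 137 ± 12.9 CPM at 70, 94 and 105 dB (mean ± SD, n = 4) and was not called.

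Peroxiredoxins, which reduce hydrogen peroxide through a reactive cysteine, had 1 of 6 members higher at 94 dB and none called at 105 dB. Of all genes tested, 13.9% were higher at 94 dB and 1.62% were called at 105 dB. Prdx6, the member that uses glutathione and also acts on phospholipids, read 185, 201, 189 and 186 CPM at 70 dB, 209.8, 216, 208 and 229 CPM at 94 dB and 211, 217, 225 and 196 CPM at 105 dB. All 94 dB libraries exceeded all 70 dB libraries, with a log2 fold change of 0.18 ± 0.06 (SE, with adjusted p = 0.0430) by edgeR's test. This call was lost without 70 dB replicates 1 (0.0824), 3 (0.0810) or 4 (0.0886), or 94 dB replicates 2 (0.0693), 3 (0.0574) or 4 (0.124), or 105 dB replicates 1 (0.0534) or 2 (0.0596). Other settings that ended it were the fits with upper-quartile factors (0.0899), without a filter on low counts (0.104), in a fit of the 8 libraries compared (0.0575) or without 94 dB replicates 3 and 4 together (0.176), with adjusted p from 0.0142 to 0.176.

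Prdx2, abundant in red blood cells, read 464, 549, 445 and 543 CPM at 70 dB, 490.4, 529.8, 544 and 584 CPM at 94 dB and 525, 645, 703 and 607 CPM at 105 dB. The groups overlapped, with the 2 highest values in 105 dB replicates 2 and 3, and its log2 fold change at 105 dB was 0.31 ± 0.09 (SE, with adjusted p = 0.109) by edgeR. Prdx2 overlaps Junb and Rnaseh2a on the other strand, over 5.67% and 5.80% of its exon length. Junb rose from 34.5 ± 3.39 to 95.7 ± 19.1 CPM at 94 dB (mean ± SD, n = 4), and since the use of strand in counting is not given in the sources used here, the Prdx2 value is uncertain. Prdx1, a cytosolic member, lay at 293 ± 16.4, 263 ± 15.2 and 316 ± 25.8 CPM at 70, 94 and 105 dB (mean ± SD, n = 4), and was not called against 70 dB at either level. The mitochondrial Prdx3, the endoplasmic reticulum member Prdx4 and Prdx5 had log2 fold changes of 0.08, 0.13 and 0.36 at 94 dB, none of them called. For Prdx5, which overlaps Trmt112 over 19.1% of its exon length, 94 dB replicates 3 and 4 read 314 and 368 CPM against 222 and 259 in the other pair, and DESeq2 called the gene (adjusted p = 0.0399).

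Glutathione peroxidases had 1 of 5 members higher at each noise level and none lower. Of all genes tested, 13.9% were higher at 94 dB and 1.11% at 105 dB. Gpx1 (ENSMUSG00000063856; mm10 chromosome 9, 108338903 to 108340343) read 786, 903, 743 and 790.4 CPM at 70 dB, 857, 1064, 1063 and 1201 CPM at 94 dB and 1003, 1163, 1154 and 1013 CPM at 105 dB. All 105 dB libraries lay above all 70 dB libraries, whereas 94 dB replicate 1 lay below 70 dB replicate 2. The fitted log2 fold change was 0.38 ± 0.10 (SE, with adjusted p = 0.00978) at 94 dB and 0.43 ± 0.10 (SE, with adjusted p = 0.0340) at 105 dB, by edgeR's test.

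The 94 dB call of Gpx1 was lost once the GC and length trend was removed (log2 fold change 0.06, adjusted p = 0.611) or without 94 dB replicates 3 and 4 together (0.142), with adjusted p from 0.00116 to 0.611. The 105 dB call was lost without 70 dB replicates 1 (0.0871), 3 (0.0831) or 4 (0.101), or 105 dB replicates 2 (0.144) or 3 (0.105), with adjusted p from 0.00146 to 0.144. Haemoglobin genes made up 1.84 ± 0.17% of ambient counts, 2.42 ± 0.60% of those at 94 dB and 2.40 ± 0.35% of those at 105 dB (mean ± SD, n = 4). Against 70 dB, a two-sided exact permutation test of that share gave p = 0.114 at 94 dB and p = 0.0286 at 105 dB, the smallest that 4 against 4 allows, or 0.137 and 0.0571 after adjustment over 6 tests. Red cells are known to be rich in GPX1, and of the 10 erythroid markers 3 rose and 1 fell at 94 dB, and 1 rose and none fell at 105 dB. Of all genes tested, 13.9% rose and 12.2% fell at 94 dB, and 1.11% rose and 0.508% fell at 105 dB. The part of erythroid RNA in the Gpx1 result was not tested.

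Of the other peroxidases, Gpx4 read 366, 440.4, 349 and 414 CPM at 70 dB, 338, 375, 570.0 and 628 CPM at 94 dB and 392, 421, 539.7 and 414 CPM at 105 dB. Replicates 3 and 4 were high at 94 dB and replicates 1 and 2 lay inside or below the ambient range, so the groups overlapped (adjusted p = 0.297 by edgeR). A processed copy, Gpx4-ps2, is 99.7% identical over 733 bases of the transcript and held counts equal to 4.71% of those of Gpx4, so reads may be shared. Gpx3 read 507, 657, 589.9 and 617 CPM at 70 dB, 579.7, 632, 705 and 738 CPM at 94 dB and 543, 627, 702 and 579.6 CPM at 105 dB. Its groups overlapped at every level, and its log2 fold changes were 0.16 at 94 dB and 0.05 at 105 dB. Gpx7 and Gpx8, which act in the endoplasmic reticulum, had 0.16 and 0.16 at 94 dB and were not called.

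Glutathione synthesis and recycling had 1 of 5 members lower at 94 dB, where 12.2% of all genes were. None was called at 105 dB, where 1.62% of all genes were. Gclc (ENSMUSG00000032350; mm10 chromosome 9, 77754535 to 77794485), the catalytic subunit of the rate-limiting ligase, read 88.4, 108, 99.2 and 104 CPM at 70 dB, 78.5, 80.2, 74.6 and 74.4 CPM at 94 dB and 99.3, 105, 83.3 and 113 CPM at 105 dB. Every 94 dB library lay below every library of the other groups, which overlapped each other. Its log2 fold change was -0.38 ± 0.09 (SE, with adjusted p = 0.00490) at 94 dB and 0.00 ± 0.09 (SE, with adjusted p = 0.984) at 105 dB, by edgeR. The 94 dB call was lost without 94 dB replicates 3 and 4 together (0.0754), with adjusted p from 7.55e-04 to 0.0754.

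The modifier subunit Gclm was not called, with 140.0 ± 6.34 CPM at 70 dB, 139.6 ± 13.1 at 94 dB and 160.4 ± 9.58 at 105 dB (mean ± SD, n = 4). At 105 dB its libraries lay above those at 70 dB without overlap, yet the test gave an adjusted p of 0.173 by edgeR. Glutathione synthetase Gss, glutathione reductase Gsr and the cystine importer Slc7a11 had log2 fold changes of 0.04, 0.19 and -0.05 at 94 dB, and none was called. Acss2, Gssos1 and Gssos2 overlap 6.68%, 5.44% and 6.51% of the exon length of Gss on the other strand, so the Gss value is uncertain. Slc7a11, a common marker of NRF2 activity, read 64.6 to 77.5 CPM at 94 dB inside its ambient range of 64.8 to 83.4, apart from replicate 4. A stretch of 373 bases of Slc7a11 is 96.3% identical to Tuba1b, and reads there are uncertain.

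Among conjugating enzymes and the exporter Abcc1, 1 of 6 genes rose at 94 dB, where 13.9% of all genes did. None was called at 105 dB, where 1.62% of all genes were. Mgst3 (ENSMUSG00000026688; mm10 chromosome 1, 167371966 to 167393841), a membrane-bound glutathione transferase and peroxidase, read 67.8, 67.5, 61.4 and 67.0 CPM at 70 dB, 76.5, 83.4, 103 and 104 CPM at 94 dB and 70.3, 77.9, 82.2 and 69.2 CPM at 105 dB. Both noise groups lay above the 70 dB group, and 94 dB replicates 3 and 4 were the highest of all. The log2 fold change was 0.47 ± 0.09 (SE, with adjusted p = 0.00189) at 94 dB and 0.18 ± 0.09 (SE, with adjusted p = 0.294) at 105 dB, by edgeR. At 94 dB the call held under all 23 alternatives, with adjusted p of 3.20e-05 to 0.0495, the highest without 94 dB replicates 3 and 4. The log2 fold change was 0.28 without that pair and 0.27 once the GC and length trend was removed.

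Gstm1, a cytosolic transferase of the mu class, read 194, 200.3, 183 and 180.4 CPM at 70 dB, 183, 172, 143 and 133 CPM at 94 dB and 201, 210.4, 262 and 184 CPM at 105 dB. Replicates 3 and 4 were the lowest at 94 dB, and 105 dB replicate 3 was the highest of all. It was not called at 94 dB, where the fitted log2 fold change was -0.26 ± 0.11 (SE, with adjusted p = 0.0895) by edgeR. It passed without 94 dB replicate 1 (0.0367), or 105 dB replicate 3 (0.0436) and once the GC and length trend was removed (log2 fold change -0.48, adjusted p = 0.0185), with adjusted p from 0.0185 to 0.651. Gstp1, of the pi class, read 131 and 146 CPM in 94 dB replicates 3 and 4 against 93.2 and 88.3 in replicates 1 and 2, and was not called. Its paralog Gstp2 is 98.2% identical over 707 bases, so counts may be split between them. Gsta4, which conjugates lipid aldehydes, and Mgst1 had log2 fold changes of 0.02 and 0.17 at 94 dB, and Abcc1 had -0.01.

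The 3 genes of NADPH supply went different ways at 94 dB, with 1 higher, 1 lower and 1 not called. Of all genes tested, 13.9% were higher and 12.2% lower. Pgd (ENSMUSG00000028961; mm10 chromosome 4, 149149991 to 149166771), 6-phosphogluconate dehydrogenase of the pentose phosphate pathway, read 158, 168, 154 and 159 CPM at 70 dB, 194, 235, 212 and 238 CPM at 94 dB and 163, 157, 179 and 167 CPM at 105 dB. Every 94 dB library exceeded every library of the other groups, and 70 and 105 dB overlapped. The estimate was a log2 fold change of 0.46 ± 0.07 (SE, with adjusted p = 4.21e-04) at 94 dB, kept under all 23 alternatives, and 0.06 ± 0.07 (SE, with adjusted p = 0.698) at 105 dB, by edgeR.

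G6pdx, the entry enzyme of the same pathway, was not called, with 116 ± 3.24, 109.8 ± 13.7 and 108 ± 3.83 CPM at 70, 94 and 105 dB (mean ± SD, n = 4). At 105 dB its libraries lay below those at 70 dB without overlap, with a log2 fold change of -0.11 ± 0.08 (SE, with adjusted p = 0.466) by edgeR. Ikbkg overlaps 13.6% of the exon length of G6pdx on the other strand, so the G6pdx value is uncertain. Me1, cytosolic malic enzyme, read 65.9, 69.3, 66.9 and 78.0 CPM at 70 dB, 62.3, 58.9, 59.8 and 64.2 CPM at 94 dB and 67.8, 65.9, 61.0 and 64.0 CPM at 105 dB. Its 94 dB libraries lay below the 70 dB libraries, with a log2 fold change of -0.19 ± 0.07 (SE, with adjusted p = 0.0425) by edgeR's test. The call was lost without 70 dB replicates 2 (0.0690), 3 (0.0575) or 4 (0.174), or 94 dB replicates 1 (0.0648), 2 (0.114), 3 (0.101) or 4 (0.0501), or 105 dB replicates 1 (0.0608), 2 (0.0583) or 4 (0.0638). It also ended without a filter on low counts (0.0996), in a fit of the 8 libraries compared (0.0804), once the GC and length trend was removed (log2 fold change -0.08, adjusted p = 0.423) or without 94 dB replicates 3 and 4 together (0.130), with adjusted p from 0.0207 to 0.423. Gm7049, a processed copy 98.5% identical to Me1 over 1638 bases, fell from 5.48 ± 0.63 to 2.47 ± 0.45 CPM at 94 dB (mean ± SD, n = 4), so shared reads make the Me1 value uncertain.

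Superoxide dismutases, which turn superoxide into hydrogen peroxide, were not called at either level. The cytosolic Sod1 read 204, 197, 183 and 216 CPM at 70 dB, 219, 198, 302 and 319 CPM at 94 dB and 214, 234, 264 and 197 CPM at 105 dB. Replicates 3 and 4 were high at 94 dB and the other pair lay near the ambient values (adjusted p = 0.0662 by edgeR and 0.0261 by DESeq2). The mitochondrial Sod2 read 119 ± 2.72, 125 ± 4.94 and 117 ± 2.70 CPM at 70, 94 and 105 dB (mean ± SD, n = 4). It was called once the trend on GC content and length was removed, at 94 dB, by 0.30 on the log2 scale. Up to 191 bases of Sod2 are at least 95% identical to stretches of 8 other genes, so a few of its reads are uncertain. The extracellular Sod3 had 0.18 at 94 dB and 0.10 at 105 dB.

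Catalase, the haem oxygenases and Nqo1 were likewise not called at either level. Cat, which breaks down hydrogen peroxide in peroxisomes and is abundant in red cells, read 159.9 ± 5.54, 145 ± 11.1 and 156 ± 17.2 CPM (mean ± SD, n = 4). Hmox1, the inducible haem oxygenase, read 119, 129, 144 and 108 CPM at 70 dB, 144, 129.9, 108 and 126 CPM at 94 dB and 139.7, 154, 159.8 and 129 CPM at 105 dB. Its groups overlapped, and its log2 fold change was 0.02 ± 0.10 (SE, with adjusted p = 0.900) at 94 dB and 0.22 ± 0.10 (SE, with adjusted p = 0.254) at 105 dB, by edgeR. Nqo1, a quinone reductase widely used as a readout of NRF2, read 19.7, 18.5, 16.7 and 21.8 CPM at 70 dB, 14.7, 16.3, 19.1 and 20.5 CPM at 94 dB and 18.8, 19.1, 18.8 and 20.6 CPM at 105 dB. No group stood apart, with a log2 fold change of -0.12 ± 0.11 (SE, with adjusted p = 0.438) at 94 dB by edgeR. The constitutive Hmox2 had -0.04 at 94 dB, and Cdip1 overlaps 40.2% of its exon length on the other strand, so its value is uncertain.

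Osgin1 (ENSMUSG00000074063; mm10 chromosome 8, 119434124 to 119446256), an oxidative stress-induced growth inhibitor, read 8.41, 8.16, 9.04 and 8.38 CPM at 70 dB, 11.8, 11.7, 10.8 and 11.7 CPM at 94 dB and 9.10, 7.62, 8.47 and 8.78 CPM at 105 dB. All 94 dB libraries lay above all others. The fitted log2 fold change was 0.43 ± 0.09 (SE, with adjusted p = 0.00312) at 94 dB and 0.00 ± 0.09 (SE, with adjusted p = 0.997) at 105 dB, by edgeR. The 94 dB call was lost once the GC and length trend was removed (log2 fold change 0.17, adjusted p = 0.257), with adjusted p from 9.17e-05 to 0.257. Srxn1, the sulfiredoxin that repairs overoxidised peroxiredoxins, read 66.2, 62.9, 66.2 and 85.2 CPM at 70 dB, 74.8, 76.3, 78.4 and 82.2 CPM at 94 dB and 67.1, 63.8, 61.7 and 67.9 CPM at 105 dB. Replicate 4 was high at 70 dB, and without it Srxn1 passed at 94 dB with an adjusted p of 0.0102, against 0.191 with all libraries, and over the alternatives it spanned 0.0102 to 0.796 by edgeR.

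The direct comparison of 105 dB with 94 dB asked where the louder noise differed from the lower level. Of the 41 genes 4 were higher at 105 dB (Nfe2l2, Gclc, Gstm1 and Prdx1) and 5 lower (Keap1, Pgd, Osgin1, Mgst3 and Srxn1), 22.0% in all. Among all genes tested, calls made up 17.3%, 8.06% higher and 9.23% lower, so the members' share is close to the background. The members' median log2 fold change was -0.05, and 0.05 without 94 dB replicates 3 and 4 together. Some members were called only once the trend on GC content and length was removed. By edgeR, Gpx1 and Txn2 were then higher at 105 dB, by 0.27 (adjusted p = 0.0284) and 0.26 (0.0326) on the log2 scale. Txn1 and Sod2 were then lower, at -0.26 (0.0414) and -0.26 (0.0120). The groups did not overlap in 9 of the 41 genes (22.0%), against 21.3% over all genes. Both groups enter the comparisons with 70 dB, so these calls are not independent of the ones above.

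Keap1 and Pgd were lower at 105 dB than at 94 dB with log2 fold changes of -0.43 ± 0.07 (SE, with adjusted p = 0.00169) and -0.40 ± 0.07 (SE, with adjusted p = 0.00288) by edgeR, and kept these calls under all 23 alternatives, although that of Keap1 was -0.24 once the GC and length trend was removed. Nfe2l2 was higher by 0.36 ± 0.07 (SE, with adjusted p = 0.00437) on the log2 scale by edgeR, a call lost only without 94 dB replicates 3 and 4 together (0.0925), with adjusted p from 7.85e-05 to 0.0925. Gclc was higher by 0.38 ± 0.09 (SE, with adjusted p = 0.00818) by edgeR, a call lost only without 94 dB replicates 3 and 4 together (0.126), with adjusted p from 9.78e-04 to 0.126. In all 4 genes the 94 dB group stood apart from both the quieter and the louder group, while the latter 2 overlapped.

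Osgin1 was lower at 105 dB with a log2 fold change of -0.43 ± 0.09 (SE, with adjusted p = 0.00607) by edgeR, a call lost once the GC and length trend was removed (log2 fold change -0.20, adjusted p = 0.219) or without 94 dB replicates 3 and 4 together (0.0616), with adjusted p from 1.97e-04 to 0.219. Gstm1 was higher by edgeR, with 0.44 ± 0.11 (SE, with adjusted p = 0.0137), a call lost without 94 dB replicate 3 (0.0530) and without 94 dB replicates 3 and 4 together (log2 fold change 0.27, adjusted p = 0.220), with adjusted p from 0.00179 to 0.220. Prdx1 read 269, 302, 298 and 304 CPM at 70 dB, 252, 249, 268 and 282 CPM at 94 dB and 301, 318, 351 and 293 CPM at 105 dB. All 105 dB libraries exceeded all 94 dB libraries. Its log2 fold change was 0.26 ± 0.07 (SE, with adjusted p = 0.0205) by edgeR, a call lost without 94 dB replicate 2 (0.0525), or 105 dB replicates 2 (0.0551) or 3 (0.0603) and once the GC and length trend was removed (log2 fold change 0.14, adjusted p = 0.227) or without 94 dB replicates 3 and 4 together (0.0681), with adjusted p from 0.00477 to 0.227.

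Mgst3 and Srxn1 were lower at 105 dB by edgeR, with log2 fold changes of -0.29 ± 0.09 (SE, with adjusted p = 0.0399) and -0.26 ± 0.08 (SE, with adjusted p = 0.0421). The Mgst3 call was lost without 94 dB replicates 3 (0.142) or 4 (0.139), or 105 dB replicates 1 (0.106), 2 (0.0671) or 4 (0.124) and in a fit of the 8 libraries compared (0.0653) or without 94 dB replicates 3 and 4 together (log2 fold change -0.10, adjusted p = 0.610), with adjusted p from 0.00783 to 0.610. For Srxn1 it was lost without 94 dB replicates 2 (0.0556), 3 (0.0956) or 4 (0.116), or 105 dB replicates 1 (0.0661), 2 (0.10), 3 (0.0911) or 4 (0.0702). It was lost as well with upper-quartile factors (0.05002), once the GC and length trend was removed (log2 fold change -0.17, adjusted p = 0.205) or without 94 dB replicates 3 and 4 together (0.295), with adjusted p from 0.00928 to 0.295. Without 94 dB replicates 3 and 4 together, Keap1 and Pgd were the only members called between the 2 noise levels. Over all genes, 217 were called there, against 3372 with all libraries.

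**Figure D4:**
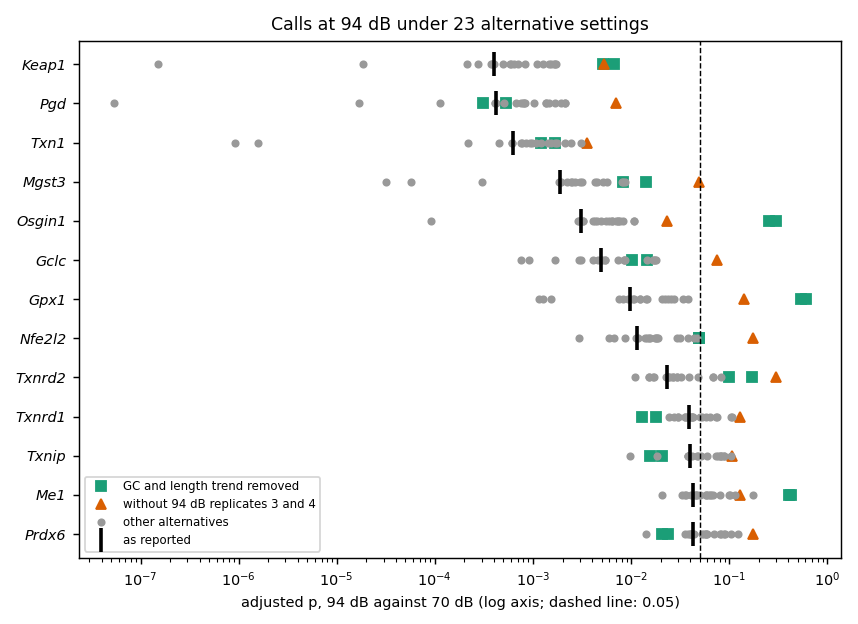
Adjusted p at 94 dB against 70 dB, on a log axis, for the 13 called genes under 23 alternative settings; the black tick is the reported value and the dashed line 0.05. Every point of Keap1, Pgd, Txn1 and Mgst3 lies left of the line. Prdx6, Me1, Txnip, Txnrd1, Txnrd2, Gpx1, Osgin1, Nfe2l2 and Gclc have points on both sides.

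Within the 94 dB group the members with higher values in replicates 3 and 4 outnumbered those with lower ones. In 18 of the 41 genes (43.9%) replicates 3 and 4 both read above replicates 1 and 2, and in 9 (22.0%) both read below, against 25.3% and 25.1% of all genes tested. The largest ratios of the mean of replicates 3 and 4 to that of replicates 1 and 2 were 1.68 for Gpx4, 1.52 for Gstp1, 1.49 for Sod1, 1.45 for Gpx7 and 1.42 for Prdx5, and the smallest was 0.78 for Gstm1. Keap1 and Txnrd1 were level, at 0.99 each. The same replicates held 2.68% and 2.73% of counts in mitochondrial genes, against 3.53% and 3.59% in the other pair, and 2.90% and 2.95% in haemoglobin genes, against 1.75% and 2.07%. The part of this difference between libraries in the members' values was not tested beyond leaving the pair out. The 41 genes had a median exon length of 2820 bases, against 3723 for 19484 annotated genes tested, and a median GC content of 49.7% against 49.6%.

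Other genes of the pathway were counted from lists that do not include the 41. Their calls are given from all libraries only, and not without 94 dB replicates 3 and 4. Over all genes tested, 13.9% rose and 12.2% fell at 94 dB, and 1.11% rose and 0.508% fell at 105 dB. Of 18 partners and regulators of NRF2, 7 rose and 3 fell at 94 dB, and 2 rose and none fell at 105 dB, with medians of 0.09 and 0.08. Maff and Mafk, small MAF proteins that pair with NRF2 and also with other factors, had the smallest p at both levels. Maff rose from 7.18 ± 1.52 CPM at 70 dB to 20.1 ± 2.01 at 94 dB and 17.0 ± 1.28 at 105 dB (mean ± SD, n = 4), with log2 fold changes of 1.49 (adjusted p = 2.29e-06) and 1.25 (adjusted p = 2.27e-05) by edgeR. Mafk rose from 40.5 ± 4.05 to 60.4 ± 1.28 and 54.7 ± 2.34 CPM (mean ± SD, n = 4), with log2 fold changes of 0.57 (adjusted p = 7.29e-05) and 0.43 (adjusted p = 0.00308) by edgeR.

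Of 39 other glutathione and conjugation genes tested, 3 rose and 2 fell at 94 dB and none was called at 105 dB. Oplah, 5-oxoprolinase of the glutathione cycle, and Slc3a2, the partner chain of the cystine importer, had log2 fold changes of 0.43 (adjusted p = 9.85e-04) and 0.28 (adjusted p = 0.00341) at 94 dB by edgeR. Of 49 other NRF2 targets and redox enzymes, 15 rose and 1 fell at 94 dB, and 1 rose and none fell at 105 dB, with medians of 0.08 and 0.09. The shares over all genes were 13.9% higher and 12.2% lower at 94 dB, and 1.11% higher and 0.508% lower at 105 dB. Aldh2, a mitochondrial aldehyde dehydrogenase, rose from 373 ± 28.4 to 562 ± 56.1 CPM at 94 dB and lay at 369 ± 19.9 at 105 dB (mean ± SD, n = 4). Ccs, the copper chaperone of SOD1, rose from 24.5 ± 1.77 to 40.1 ± 5.90 CPM at 94 dB (mean ± SD, n = 4). The gene called at 105 dB was the sestrin Sesn1, which rose by 0.30 on the log2 scale (adjusted p = 0.0309 by edgeR).

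Among 23 genes of NADPH oxidases and other oxidant sources, 3 rose and 1 fell at 94 dB and none was called at 105 dB. The 2 with the smallest p were P4hb, a protein disulfide isomerase, and Nos3, endothelial nitric oxide synthase, with log2 fold changes of 0.26 and 0.42. Of 23 selenoprotein and selenocysteine synthesis genes, a group to which GPX1, GPX3, GPX4 and the thioredoxin reductases belong as enzymes with selenocysteine, 3 rose and 3 fell at 94 dB and none was called at 105 dB. Secisbp2l and the deiodinase Dio2 fell at 94 dB with log2 fold changes of -0.45 and -0.40. Against 26.1% of all genes called at 94 dB, these lists had 10 of 18, 5 of 39, 16 of 49, 4 of 23 and 6 of 23 genes called.

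In all, 16 of the 41 genes were called in at least 1 of the 3 comparisons and 25 in none. Among these 25, log2 fold changes ran from -0.14 to 0.37 at 94 dB, with a smallest adjusted p of 0.0662 by edgeR, and from -0.12 to 0.31 at 105 dB, with a smallest adjusted p of 0.109. The 25 include the whole SOD group, Cat, Hmox1, Hmox2, Nqo1, Gclm and Slc7a11. A p that misses the threshold does not show that a gene was unchanged.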

How the data were processed

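Cochlear RNA of 12 libraries, 4 at each noise level, was counted per gene by the authors, who deposited raw read counts in 1 table. Per the submitters' processing notes CASAVA, STAR and featureCounts 1.5.0-p3 were used with mm10. For strand setting, multi-mapping reads and annotation release the value is not given in the sources used here. Rows without a symbol (22 of 35496) were not members.

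Counts were analysed with edgeR 4.0.16 in R 4.3.3: filterByExpr with a minimum count of 10, TMM factors, and a robust quasi-likelihood fit of all 12 libraries (9 residual degrees of freedom), with p-values adjusted over 19497 genes. The code was tested on simulated data. Levels at 3 counts, the floor of detection, were 0.0703 to 0.0966 CPM, and counts without molecular identifiers are not independent molecules. Exon length, GC content, overlaps and copies (blastn 2.17.0, at least 95% identity over at least 100 bases) came from GENCODE M21, and promoter windows from RefSeq GRCm38.p6. The 23 alternatives covered scaling, filters, DESeq2 1.42.0, the 8 libraries compared, replicate number, GC content with length, and omitted libraries.

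Members called in at least 1 comparison, Nfe2l2, Keap1 and the 3 members with the highest ambient level per length were named with every library; other members' values were added after the results were seen. From each companion list, the called genes with the 2 smallest p were named. The members and all gene lists were chosen with earlier results of these data known.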

Additional observations from a re-analysis of the deposited data

Results flagged for a closer look

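In 8 of 123 groups of 4 libraries, the highest or lowest CPM lay far from the other 3 by Dixon's criterion at the 95% level, which chance meets in about 1 of 20 groups. At 70 dB, Srxn1 read 85.25 CPM in replicate 4 against 62.95 to 66.22 in the others, and without that library its adjusted p at 94 dB was 0.0102 by edgeR. Hmox2 read 52.05 in the same library against 44.25 to 45.17, and Mgst3 read 61.38 in replicate 3 against 66.99 to 67.79. At 94 dB, Osgin1 read 10.76 in replicate 3 against 11.68 to 11.78, and Abcc1 read 33.41 in replicate 1 against 28.5 to 29.18. At 105 dB, Cat read 130.6 in replicate 3 against 161.7 to 167.4, and Gstp1 read 121.7 in that library against 94.36 to 98.35. Txnrd2 read 33.57 in replicate 1 against 40.29 to 41.11.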

How the results depend on the processing

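In a comparison where a member was called, its direction did not change under any of the 23 alternatives. Where members were not called, some small fold changes did, such as that of Keap1 at 105 dB against 70 dB, from -0.01 to 0.08 on the log2 scale. At 94 dB against 70 dB, where 5085 genes were called, 3186 were called with the GC and length trend removed and 1610 without 94 dB replicates 3 and 4 together. Without that pair 5 members rose and 0 fell, with a median of 0.037. Leaving out 1 library gave 3452 to 5409 genes, 6 to 14 members higher, 2 to 4 lower and medians of 0.09 to 0.18. At 105 dB against 70 dB, 316 genes became 523 with no filter on low counts and 885 with DESeq2, and the 1 member higher became 3 and 5. Leaving out 1 library gave 126 to 399 genes, 0 to 2 members higher and medians of 0.06 to 0.12. Between 105 and 94 dB, 3372 genes became 1894 with the GC and length trend removed and 217 without 94 dB replicates 3 and 4, and the members' median of -0.05 became 5.62e-04 with the trend removed. That omission left 0 members higher, 2 lower and turned the members' median to 0.054, and leaving out 1 library gave 1650 to 3798 genes, 3 to 4 members higher, 3 to 5 lower and medians of -0.09 to -0.002. Apart from the smaller number of samples where libraries were left out, the cause was not tested.

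Replicate numbers are shared between groups, but deviations of the 12 same-numbered pairs correlated with r of -0.149 to 0.182, over 0.1 in 3, and 4 of 12 libraries correlated best with their own number, so the numbers were not taken to pair the samples. Codes in the titles differ from these numbers for 105 dB replicates 3 and 4, coded 4 and 5. Paired by code, r over 10 pairs ran from -0.040 to 0.182, over 0.1 in 4. The block used replicate numbers. With a replicate block 479 genes were called at 105 dB against 70 dB, and with the block and the GC and length trend removed 3377 genes at 94 dB, 673 genes and 4 members at 105 dB, and 2029 genes between 105 and 94 dB. The block alone left 5084 genes called at 94 dB, with 9 members higher and 3 lower, and Prdx6 not called (adjusted p = 0.0558 by edgeR). Ranges of p beside single genes leave out the fits with the block.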
